A study of Mus musculus with 6 samples.

Results

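Homologous recombination and Fanconi repair genes are described here across 2 mouse mammary carcinoma cell lines, as the 38 listed genes among the 47729 genes of an RNA-sequencing table, chosen by symbol from the table's gene names. All 38 were found, and all 38 passed the filter on low values (at least 10 normalised reads in at least 3 of the 6 libraries), as did 14276 genes in all. The groups were 4T1 cells and 4TO7 cells, each grown from a tumour line of BALB/c origin in DMEM with serum, with no treatment, and each with 3 libraries of total RNA. Whether the triplicate cultures were grown independently is not stated in the labels, so p-values reflect only how far these libraries differ among themselves, and part of that spread may be technical. Each group is 1 cell line, so a difference between the groups belongs to the pair of lines and cannot be assigned to any single trait of either. As background, 4T1 forms visible metastases from the mammary gland, and its sister line 4TO7 reaches distant organs with little outgrowth there.

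As background, homologous recombination repairs a broken chromosome by copying the intact sister: nucleases trim the ends, BRCA1, PALB2 and BRCA2 prepare the exposed strand for pairing with the sister, and helicases and nucleases undo the joined molecules afterwards. The Fanconi pathway handles crosslinked strands: a core complex attaches ubiquitin to the FANCD2 and FANCI pair, which then directs incision and recombination. Inherited defects in many of these genes predispose to breast and ovarian cancer or cause Fanconi anaemia, and the pathway is used mostly by cells that are copying their DNA.

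The libraries held 33605566 to 39072639 reads in genes, and the lowest read count of any of the 38 genes in a library was 59. Values are normalised reads, given in the order of replicates 1 to 3, and are read counts divided by a size factor per library that lay between 0.954 and 1.07. All 8 epithelial markers were higher in 4T1 cells, with a summed level of 191097 to 214195 normalised reads in 4T1 libraries and 25838 to 42475 in 4TO7 libraries, and Krt19, Cldn3 and Cldn7 averaged at most 3.55 normalised reads in 4TO7 cells. The 8 haematopoietic markers summed to 253 to 470.1 in 4T1 and 94.5 to 159 in 4TO7, mostly Cd68, with 3 of the 8 at 0 in every library, Cd3e and Adgre1 among them. The 6 endothelial markers summed to 27.9 to 68.6 in 4T1 and 57.7 to 78.6 in 4TO7, with Cldn5 at 0. The 8 fibroblast markers summed to 592 to 1375 in 4T1 and 1722 to 7526 in 4TO7, nearly all of it Pdgfra, with Col3a1 and Lum at 0.

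4TO7 replicate 2 stood apart from the other libraries of its line in these genes. In it, 29 of the 38 genes lay above the mean of 4TO7 replicates 1 and 3, by a median of 0.31 on the log2 scale, where the median over all genes tested was -0.01. Genes of S phase moved further in that library, with 24 of 25 higher and a median of 0.57. In 4T1 replicate 1, 25 of the 38 lay below the mean of 4T1 replicates 2 and 3, by a median of only -0.073, and the long genes lay lowest. Among members with over 8 kb of exon, 8 of 11 were lower there, by a median of -0.35, against -0.32 over all 2229 tested genes of that length. Of the members of 4 to 8 kb, 13 of 15 were lower, with a median of -0.17. Of all 4864 tested genes of that length 2778 were lower, with a median of -0.055. The 11 members of 2 to 4 kb had a median of 0.15 and all 4105 tested genes of that length 0.11. Fits without 4TO7 replicate 2, without 4T1 replicate 1 and without both are given below. Both libraries were picked out after the values of these genes were seen. Leaving out 4TO7 replicate 2 lowers the 4TO7 mean of the genes high in it, so calls gained that way are not separate evidence.

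**Figure D1:**
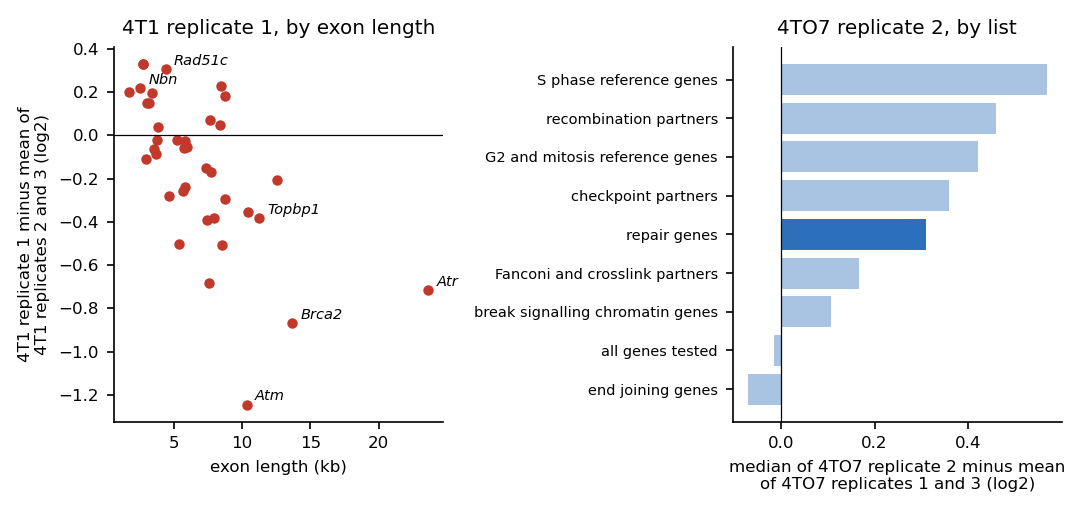
Left, each point is 1 of the 38 repair genes: the x axis is its exon length in kb and the y axis the log2 level in 4T1 replicate 1 minus the mean of 4T1 replicates 2 and 3. Right, bars give the median over each gene list of the log2 level in 4TO7 replicate 2 minus the mean of 4TO7 replicates 1 and 3. Atm, at 10.3 kb, is the lowest point at -1.25, and the repair genes' bar ends at 0.31 between the S phase genes at 0.57 and all genes tested at -0.01.

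The lines were compared to ask which repair transcripts differ between them. Log2 fold changes are 4T1 minus 4TO7 on the scale log2(value + 1), given ± SE, and adjusted p-values are limma's over all genes tested unless another tool is named. Bard1, Chek1 and Fanca were 4.36-fold, 3.82-fold and 3.30-fold higher in 4T1 cells, as ratios of the line means, and were the only members of the 38 to differ by at least 2-fold on the fitted log2 scale. Mre11a, Brip1, Nbn and Fancl were also higher in 4T1 cells, by smaller margins, and Fancg, Rad51c, Fancm, Fanci and Fancd2 were lower. The remaining 26 genes, Brca1, Brca2 and Palb2 among them, did not pass limma's test at an adjusted p of 0.05 over all genes. In RNA from whole cultures, fewer cells expressing a gene and less RNA per cell cannot be told apart.

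Thus 12 of 38 members were called, 31.6% against a background of 49% of all 14276 genes tested. Of these, 7 were higher in 4T1 cells, where 25.1% of all genes were, and 5 were lower in 4T1 than in 4TO7, where 23.9% of all genes were. Quantile normalisation gave 5 and 6 members, against 3279 and 3741 of all genes. Equal totals per library gave 5 and 8, against 2968 and 4060 of all genes, where the main fit had 3585 and 3412. Of the members 3 of 38 (7.89%) reached 2-fold, against 28.7% of all genes, and their median absolute log2 fold change was 0.42, against 0.57. The median signed log2 fold change was 0.20 over the members and 0.03 over all genes, with 23 of 38 members above 0. The members' median was 0.09 with quantile normalisation and 0.07 with equal totals, which set the median of all genes at -0.02 and -0.10. The libraries of the lines did not overlap in 11 members with 4T1 above and 8 with 4TO7 above, against 29.8% and 28.7% of all genes, so that 19 members were free of overlap where 58.4% of all genes were.

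These counts depended on single libraries. Without 4TO7 replicate 2 the call reached 13 members higher and 5 lower in 4T1, against 29.2% and 27.3% of all genes (56.5% in either direction). It gained Rad54l, Exo1, Blm, Fance, Fancf, Topbp1 and Eme1 and lost Fancm. Without 4T1 replicate 2 the counts were 5 and 1, against 2841 and 2822 of all 14276 genes tested. Without 4TO7 replicate 1 they were 4 and 3, against 2751 and 2491 of all genes. Without 4TO7 replicate 3 they were 5 and 0, against 2777 and 2526. Without 4T1 replicate 1 they were 6 and 2, against 3037 and 2882. Without 4T1 replicate 3 they were 4 and 5, against 3075 and 2950. The main fit called 3585 and 3412 of all genes. With both 4T1 replicate 1 and 4TO7 replicate 2 left out, 15 members were higher and 4 lower in 4T1 cells, against 30.2% and 28% of all genes (58.2% in either direction), and Fancl, Fancm and Fancd2 were no longer called. Bard1, Chek1, Fanca and Mre11a passed in all 18 alternative settings, and no called member changed sign in any of them.

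**Figure D2:**
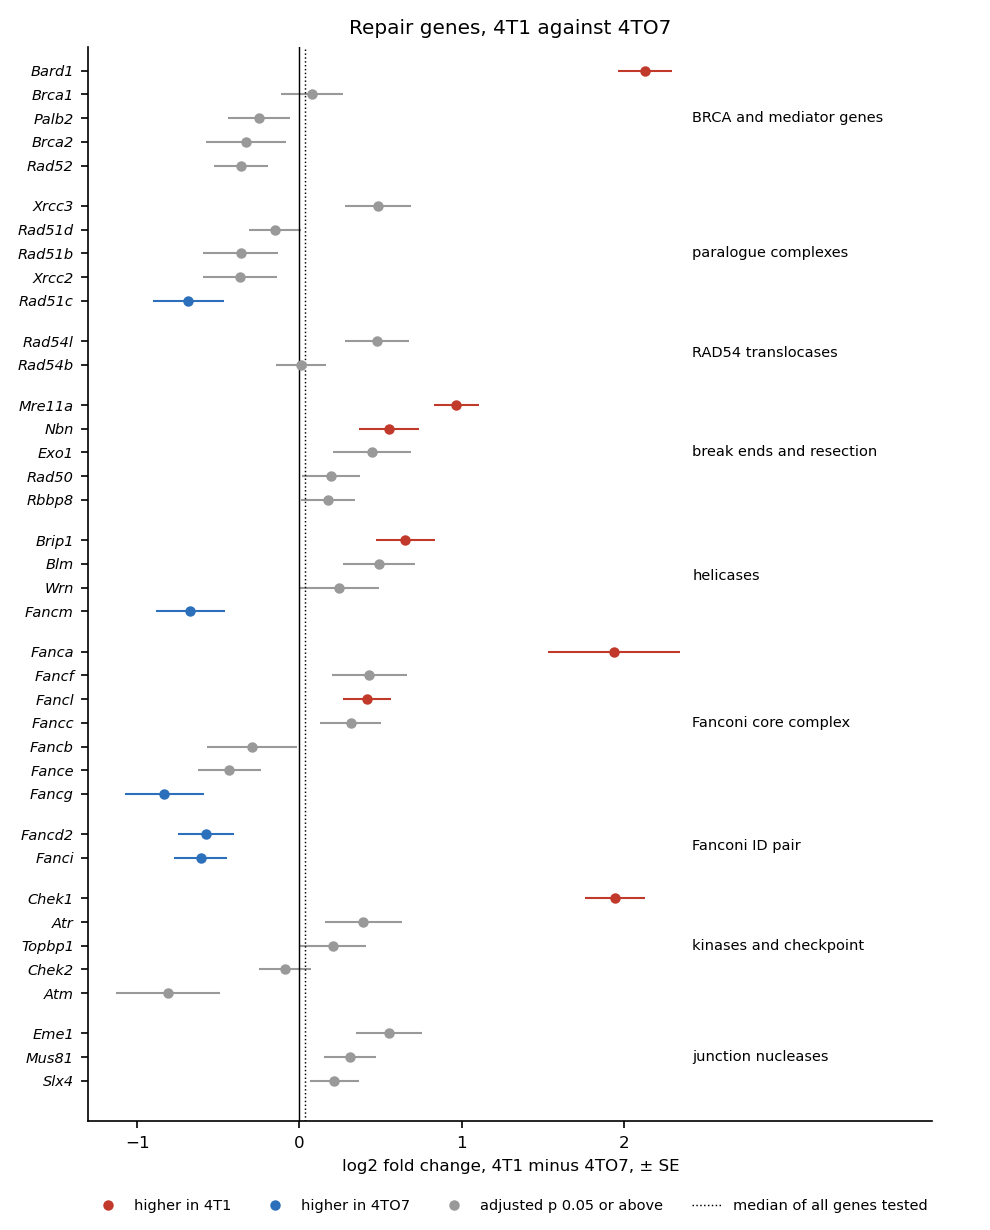
Each point is 1 repair gene, grouped by role, with the log2 fold change of 4T1 minus 4TO7 on the x axis and bars of 1 standard error. The dotted line is the median of all 14276 genes tested, 0.03. Bard1, Fanca and Chek1 stand near 2, Mre11a near 1, and the 5 genes called in the opposite direction lie between -0.57 and -0.83.

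Promoter windows are shown for 6 of the called genes, 4 higher in 4T1 cells (Bard1, Chek1, Fanca and Mre11a) and 2 lower (Fancg and Rad51c), so that their start regions can be set beside the values that follow. They come from RefSeq on GRCm38.p6, run 5′ to 3′ on the gene's strand, and span 250 bases before to 50 after an annotated start, 300 in all. Capitals mark the letters of an E2F-type motif (TTTCCCGC, TTTCGCGC, TTTGCCGC or TTTGGCGC on either strand) and of CCAAT, likewise on either strand. E2F factors and the CCAAT-binding NF-Y are known for their place in promoters of cell-cycle genes. Coordinates are Bard1 chr1:71102923-71103222, Chek1 chr9:36726609-36726908, Fanca chr8:123318527-123318826, Fancg chr4:43010252-43010551 and Rad51c chr11:87404905-87405204, all on the minus strand, and Mre11a chr9:14784404-14784703 on the plus strand. Another window is listed for Rad51c, chr11:87404457-87404756, and is not shown.
Bard1: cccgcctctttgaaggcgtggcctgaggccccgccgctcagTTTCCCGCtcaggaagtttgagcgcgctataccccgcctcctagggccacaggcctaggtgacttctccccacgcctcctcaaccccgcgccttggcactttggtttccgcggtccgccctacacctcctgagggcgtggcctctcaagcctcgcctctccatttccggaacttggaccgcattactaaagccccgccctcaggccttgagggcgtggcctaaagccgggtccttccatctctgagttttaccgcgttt
Chek1: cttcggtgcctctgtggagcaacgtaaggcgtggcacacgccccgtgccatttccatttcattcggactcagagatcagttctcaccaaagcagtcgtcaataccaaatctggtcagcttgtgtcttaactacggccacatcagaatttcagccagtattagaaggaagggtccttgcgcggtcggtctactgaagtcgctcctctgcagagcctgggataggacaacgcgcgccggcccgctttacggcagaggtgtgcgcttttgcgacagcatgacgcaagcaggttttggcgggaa
Fanca: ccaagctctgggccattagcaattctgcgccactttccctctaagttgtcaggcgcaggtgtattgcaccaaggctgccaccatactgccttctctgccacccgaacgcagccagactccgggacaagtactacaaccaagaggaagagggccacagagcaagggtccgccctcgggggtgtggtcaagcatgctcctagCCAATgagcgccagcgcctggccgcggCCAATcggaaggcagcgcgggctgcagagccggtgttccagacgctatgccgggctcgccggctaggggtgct
Mre11a: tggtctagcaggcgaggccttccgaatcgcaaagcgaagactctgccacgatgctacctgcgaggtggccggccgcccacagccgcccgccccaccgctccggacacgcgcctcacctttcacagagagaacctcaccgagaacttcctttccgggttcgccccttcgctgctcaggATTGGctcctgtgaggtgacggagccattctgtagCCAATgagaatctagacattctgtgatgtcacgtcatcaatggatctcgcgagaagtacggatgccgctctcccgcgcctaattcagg
Fancg: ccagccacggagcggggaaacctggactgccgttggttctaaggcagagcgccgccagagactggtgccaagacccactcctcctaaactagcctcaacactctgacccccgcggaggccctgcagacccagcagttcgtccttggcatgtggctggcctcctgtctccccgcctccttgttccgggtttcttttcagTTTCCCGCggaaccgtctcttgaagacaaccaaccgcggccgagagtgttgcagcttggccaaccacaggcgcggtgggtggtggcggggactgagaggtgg
Rad51c: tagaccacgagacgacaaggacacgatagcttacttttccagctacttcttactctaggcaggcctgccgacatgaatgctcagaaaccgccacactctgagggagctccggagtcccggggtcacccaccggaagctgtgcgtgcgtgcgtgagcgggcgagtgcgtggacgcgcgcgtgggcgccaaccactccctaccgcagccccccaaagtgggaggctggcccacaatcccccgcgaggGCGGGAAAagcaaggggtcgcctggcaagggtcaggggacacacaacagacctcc

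Bard1 and Fancg held the same E2F-type letters, TTTCCCGC, and stood on opposite sides of the comparison. The marked letters of Rad51c in the window shown are the reverse complement of that motif and overlap a GGGCGG. The Rad51c window not shown holds TTTCGCGC. The Chek1 window ends in gcgggaa, the same reverse complement without its final a, and so counts as no match within these bases. A window was listed for 29 of the 38 members, and 6 of those genes (20.7%) held an E2F-type motif: Bard1, Brca2, Chek2, Fancg, Rad51c and Topbp1. The motif stood in 2.6% of the 27025 genes with a window. CCAAT stood in 17 of the 29 (58.6%, against 41.1% of genes), GGGCGG in 18 (62.1% against 38.2%) and TTTGAA, the letters of a cell-cycle element, in 3 (10.3% against 20.2%), each on either strand. Of the 6 members with E2F-type letters, 1 was higher and 2 were lower in 4T1 cells, and Brca2, Chek2 and Topbp1 were not called. A match of letters is a description and shows no binding.

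**Figure D3:**
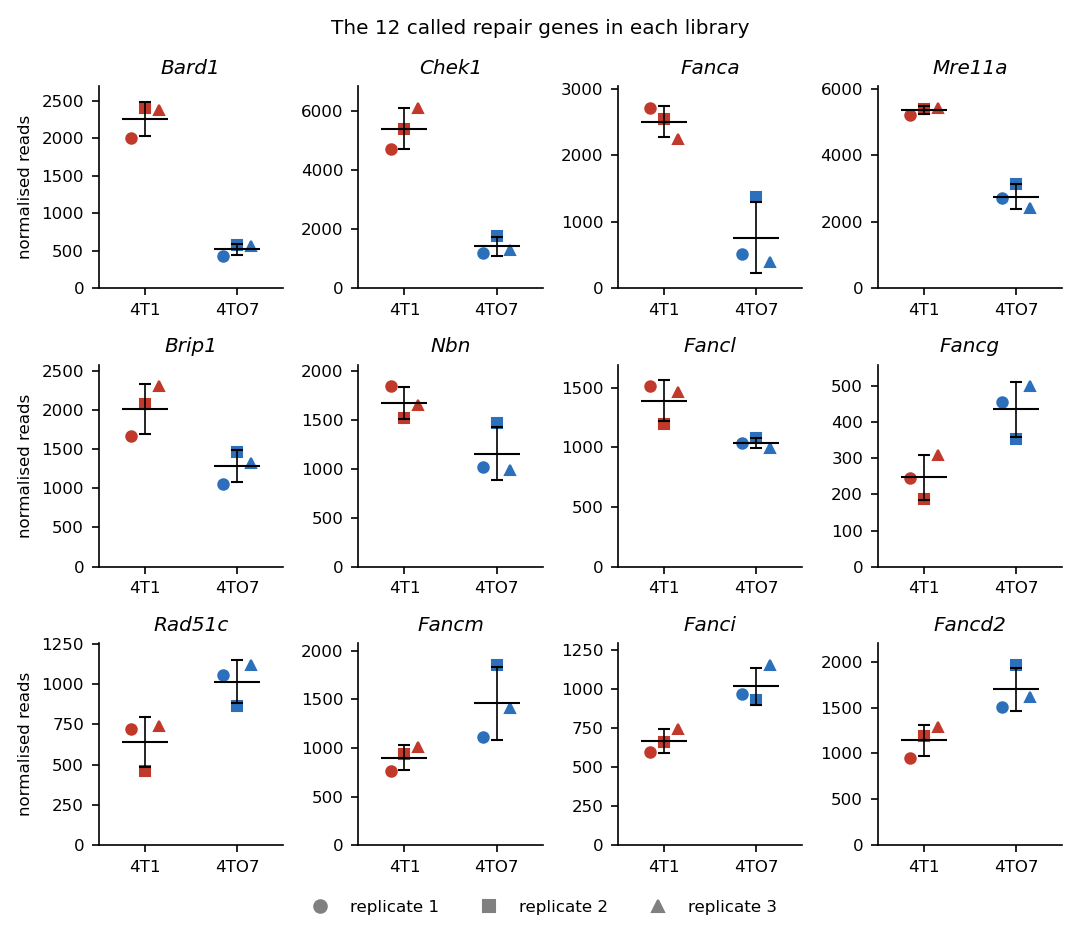
Each panel is 1 of the 12 called repair genes, with normalised reads on a y axis that starts at 0, 4T1 libraries in red on the left and 4TO7 libraries in blue on the right. Marker shapes give the replicate, and lines give the mean and SD of 3 libraries. The lines do not overlap in any of the 12 genes, and the gap relative to the level is widest for Bard1 and Chek1.

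Of the 5 BRCA and mediator genes, which act on resected DNA, 1 was higher in 4T1 cells and none lower. Bard1 encodes the obligate ring-finger partner of BRCA1, without which the ubiquitin ligase is unstable. Bard1 (ENSMUSG00000026196, chromosome 1, 71027498 to 71103146) had 1999, 2408 and 2371 normalised reads in the 4T1 libraries and 430.4, 569 and 554 in the 4TO7 libraries. Every 4T1 library was more than 3-fold above every 4TO7 library. Its log2 fold change was 2.13 ± 0.17 and its adjusted p 2.12e-05, with a range of 1.51e-28 to 0.000414 over the 18 alternatives.

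Brca1, which encodes the partner itself, had 2464, 3319 and 3694 normalised reads in the 4T1 libraries and 2483, 3355 and 3098 in the 4TO7 libraries. The libraries of the lines interleaved, and the log2 fold change of 0.076 ± 0.19 did not pass (adjusted p = 0.763), with its sign reversed under quantile normalisation and equal totals. Brca2, the large mediator that PALB2 brings to the break, had 1884, 3297 and 3596 normalised reads in the 4T1 libraries and 3063, 3569 and 4055 in the 4TO7 libraries. Here 4T1 replicate 1 was the lowest library of all, and the fold change of -0.33 ± 0.25 (adjusted p = 0.299) shrank to -0.04 without it. Palb2, which bridges BRCA1 and BRCA2, had 501, 581 and 534 normalised reads in the 4T1 libraries and 535, 788 and 620.1 in the 4TO7 libraries. Its libraries overlapped, at -0.25 ± 0.19 (adjusted p = 0.302). Rad52, known for annealing single strands, averaged 348 ± 16.6 normalised reads in 4T1 and 447 ± 26.4 in 4TO7 (SD, n = 3 each). Every 4T1 library lay below every 4TO7 library, without passing the test (log2 -0.36 ± 0.17, adjusted p = 0.103).

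Per kb of exon, Bard1 stood to Brca1 at ratios of 1.22, 1.09 and 0.968 in 4T1 cells and 0.261, 0.256 and 0.270 in 4TO7 cells. Exon length is the union of all annotated exons of a gene, so the size of such a ratio depends on the annotation. The same lengths enter both lines, so the change of a ratio between the lines does not. The ratio of Bard1 to Brca1 averaged 1.10 ± 0.13 in 4T1 and 0.262 ± 0.007 in 4TO7 (SD, n = 3 each). Brca1 itself averaged 3159 ± 630.4 normalised reads in 4T1 and 2979 ± 448 in 4TO7 (SD, n = 3 each). With 3 libraries against 3, the two-sided exact permutation test cannot go below p = 0.1, which it reached here, and adjustment over the 9 pairs compared gave 0.18. The ratios of Mre11a to Rad50, Fanca to Fancg, Chek1 to Chek2 and Atm to Atr, given further on, had the same p-values in that exact test. These 9 pairs were chosen after values had been seen.

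The 5 genes of the paralogue complexes, which assist strand pairing, held 1 gene lower in 4T1 cells and none higher. Rad51c, a member of both paralogue complexes (chromosome 11, 87376645 to 87404954), had 721, 462 and 737 normalised reads in the 4T1 libraries and 1057, 863 and 1119 in the 4TO7 libraries. The lines did not overlap, and 4T1 replicate 2 was the lowest library. It differed by log2 -0.68 ± 0.22 (adjusted p = 0.0308), and the call was lost without 4T1 replicate 2, 4TO7 replicate 1 or 4TO7 replicate 3, where the adjusted p was 0.0848, 0.0935 and 0.099.

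Rad51b, the member of lowest level at 66.6 ± 8.30 normalised reads in 4T1 and 85.5 ± 4.33 in 4TO7 (SD, n = 3 each), lay below 4TO7 in every 4T1 library without passing (adjusted p = 0.222). Xrcc2 (log2 -0.37 ± 0.23) and Rad51d (-0.15 ± 0.16) overlapped between the lines. Xrcc3, which pairs with RAD51C alone, pointed the other way at 0.48 ± 0.20 (adjusted p = 0.0787), and its 4T1 libraries all lay above the 4TO7 libraries.

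Neither RAD54 translocase, which help invasion of the intact duplex, was called. Rad54l averaged 1101 ± 82.4 normalised reads in 4T1 and 804 ± 199 in 4TO7 (SD, n = 3 each). Its log2 fold change was 0.48 ± 0.20 with an adjusted p of 0.0744, and 0.67 with an adjusted p of 0.007 without 4TO7 replicate 2. Exons of Rad54l share 15.4% of their length with Lrrc41 on the opposite strand, which averaged 2951 normalised reads in 4T1 and 2844 in 4TO7. Rad54b averaged 1082 ± 55.7 normalised reads in 4T1 and 1082 ± 157 in 4TO7 (SD, n = 3 each). Its log2 fold change of 0.0075 ± 0.15 changed sign under TMM scaling, quantile normalisation and equal totals, and 35.8% of its exon length is shared with Fsbp on the same strand.

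All 5 genes of break ends and resection had a positive fold change, and 2 were called higher in 4T1 cells. Mre11a, the nuclease of the MRE11-RAD50-NBN complex that first binds a break, has its gene on chromosome 9 (14784654 to 14837123). It had 5227, 5415 and 5442 normalised reads in the 4T1 libraries and 2708, 3146 and 2422 in the 4TO7 libraries. The 4T1 libraries lay within a narrow band and every one was above every 4TO7 library. On the log2 scale the difference was 0.97 ± 0.14 (adjusted p = 0.000665, range over the alternatives 1.11e-08 to 0.00492).

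Nbn, the complex's signalling subunit that recruits ATM, had 1844, 1520.5 and 1655 normalised reads in the 4T1 libraries and 1017, 1467 and 985 in the 4TO7 libraries. Its lowest 4T1 library, replicate 2, was only just above its highest 4TO7 library, also replicate 2. A log2 fold change of 0.55 ± 0.19 passed with an adjusted p of 0.0383, and the call held in 8 of the 18 alternatives, with adjusted p between 0.0029 and 0.133. It was lost with TMM scaling (0.0538), quantile normalisation (0.06), equal totals per library (0.0892), limma without its trend and robust options (0.0598), edgeR's quasi-likelihood test on the recovered reads (0.0616), and without each single library other than 4TO7 replicate 2.

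Rad50, the ATPase that holds the complex together, had 3895, 5261 and 5797 normalised reads in the 4T1 libraries and 3745, 4769 and 4434 in the 4TO7 libraries. The libraries overlapped (log2 0.20 ± 0.18, adjusted p = 0.397). Per kb of exon, Mre11a stood to Rad50 at 1.00 ± 0.19 in 4T1 cells and 0.583 ± 0.081 in 4TO7 cells (SD, n = 3 each). Those ratios did not overlap between the lines, while the ratios of Nbn to Rad50 did, at 0.741 ± 0.228 in 4T1 and 0.567 ± 0.091 in 4TO7. Rbbp8, which encodes CtIP and starts resection with MRE11, was at log2 0.17 ± 0.17 (adjusted p = 0.414). Exo1, the exonuclease that extends it, was at 0.45 ± 0.24 (adjusted p = 0.155), and at 0.70 without 4TO7 replicate 2.

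Of 4 helicases, 1 was higher and 1 lower in 4T1 cells. Brip1, the helicase that binds BRCA1 and is also named FANCJ, had 1667, 2072 and 2301 normalised reads in the 4T1 libraries and 1056, 1465 and 1322 in the 4TO7 libraries. Every 4T1 library was above every 4TO7 library (log2 0.65 ± 0.18, adjusted p = 0.018). The call was lost without 4T1 replicate 2, 4T1 replicate 3 or 4TO7 replicate 1, with adjusted p of 0.0623, 0.0663 and 0.0758.

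Fancm, the translocase that anchors the Fanconi core complex on DNA, had 761, 934 and 1012 normalised reads in the 4T1 libraries and 1112, 1855 and 1410.3 in the 4TO7 libraries. The lines did not overlap, although 4TO7 replicate 1 was only slightly above 4T1 replicate 3. It was at log2 -0.67 ± 0.21 (adjusted p = 0.0299). The call was lost without 4T1 replicate 1, 4T1 replicate 2, 4TO7 replicate 2 or 4TO7 replicate 3, where the adjusted p was 0.103, 0.0706, 0.051 and 0.0693.

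Blm, the helicase that dissolves double junctions, had 2553, 3024 and 3234 normalised reads in the 4T1 libraries and 1593, 2887 and 1956 in the 4TO7 libraries. 4TO7 replicate 2 reached into the range of 4T1, and the log2 fold change of 0.49 ± 0.22 did not pass (adjusted p = 0.0993). Without that library it was 0.73. Wrn, a related helicase with an exonuclease domain, overlapped between the lines at 0.25 ± 0.25 (adjusted p = 0.439).

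The 7 genes of the Fanconi core complex divided, with 2 higher and 1 lower in 4T1 cells. Fanca, the subunit most often mutated in human Fanconi anaemia (ENSMUSG00000032815, chromosome 8, 123268300 to 123318576), had 2713, 2546 and 2247 normalised reads in the 4T1 libraries and 505, 1375 and 394 in the 4TO7 libraries. All 4T1 libraries were above all 4TO7 libraries, but 4TO7 replicate 2 had more than 2-fold the reads of either other 4TO7 library. The log2 fold change was 1.94 ± 0.41 (adjusted p = 0.00491, range over the alternatives 5.15e-06 to 0.0313), with 2.48 when that library was left out. It was the least precise of the 38 estimates. Exons of Fanca share 10.5% of their length with Zfp276 on the opposite strand, which averaged 497 normalised reads in 4T1 and 483 in 4TO7.

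Fancg, the subunit that binds FANCA directly, had 246, 186 and 309 normalised reads in the 4T1 libraries and 457, 352 and 499.6 in the 4TO7 libraries. Its direction was opposite to that of Fanca, with every 4T1 library below every 4TO7 library. It was at log2 -0.83 ± 0.24 (adjusted p = 0.0223), and the call was lost without 4T1 replicate 1, 4T1 replicate 2, 4TO7 replicate 1 or 4TO7 replicate 3, at adjusted p of 0.0606, 0.0745, 0.0749 and 0.081. Per kb of exon the ratio of Fanca to Fancg was 4.77, 5.92 and 3.15 in 4T1 libraries and 0.479, 1.69 and 0.342 in 4TO7 libraries. The ratios did not overlap between the lines, and which gene of the pair is more abundant cannot be read from them.

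Fancl, the ubiquitin ligase of the complex, had 1512, 1194 and 1464 normalised reads in the 4T1 libraries and 1034, 1078 and 993 in the 4TO7 libraries. The 4T1 libraries lay above by small margins (log2 0.42 ± 0.15, adjusted p = 0.0457). The call held in 7 of the 18 alternatives, with adjusted p between 0.0304 and 0.158, and was lost in the other 11. These were TMM scaling, quantile normalisation, equal totals (the highest value), no filter on low values, limma without its trend and robust options, edgeR, the fits without 4T1 replicate 1, 4T1 replicate 3, 4TO7 replicate 1 or 4TO7 replicate 3, and the fit without both 4T1 replicate 1 and 4TO7 replicate 2. Exons of Fancl share 462 bases, 13.7% of its length, with Vrk2 on the opposite strand, which averaged 1312 normalised reads in 4T1 and 481 in 4TO7. The strand setting of the counting was not given in the sources used here, and the part of Vrk2 reads in Fancl was not tested.

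The other core genes were not called. Fancf was at 0.43 ± 0.23 (adjusted p = 0.157) and Fancc at 0.32 ± 0.19 (0.199), both pointing to 4T1. Fance was at -0.43 ± 0.19 (0.0954), and Fancb, on the X chromosome, at -0.29 ± 0.28 (0.415). Leaving out 4TO7 replicate 2 brought Fancf and Fance past the threshold in their own directions and turned the sign of Fancb to 0.03.

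Both genes of the Fanconi ID pair, the substrate of the core complex, were lower in 4T1 cells. Fancd2 (chromosome 6, 113531682 to 113597017) had 950.4, 1194 and 1283 normalised reads in the 4T1 libraries and 1511, 1965 and 1615 in the 4TO7 libraries. No library overlapped (log2 -0.57 ± 0.17, adjusted p = 0.0245), and the call was lost without 4T1 replicate 1, 4T1 replicate 2 or 4TO7 replicate 3, at 0.0685, 0.0541 and 0.0549. Fanci (chromosome 7, 79391929 to 79450264) had 595, 661 and 745 normalised reads in the 4T1 libraries and 966, 932 and 1154 in the 4TO7 libraries. Again every 4T1 library was below every 4TO7 library (log2 -0.61 ± 0.16, adjusted p = 0.0153), with the call lost without 4TO7 replicate 3 (0.0692).

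The proportion of the pair overlapped between the lines. Per kb of exon the ratio of Fancd2 to Fanci was 1.24 ± 0.08 in 4T1 cells and 1.23 ± 0.27 in 4TO7 cells (SD, n = 3 each). Fanci shares 15.9% of its exon length with Polg on the opposite strand, and Polg averaged 2794 normalised reads in 4T1 and 2568 in 4TO7.

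Of the 5 kinases and checkpoint genes, 1 was higher in 4T1 cells. Chek1, the kinase that ATR activates to hold cells with unfinished replication out of mitosis (ENSMUSG00000032113, chromosome 9, 36708482 to 36727065), had 4712, 5372 and 6107 normalised reads in the 4T1 libraries and 1188, 1772 and 1281 in the 4TO7 libraries. The lowest 4T1 library was over 2-fold above the highest 4TO7 library. The log2 fold change was 1.95 ± 0.18 (adjusted p = 6.5e-05, range over the alternatives 9.78e-19 to 0.00098).

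Chek2, the corresponding kinase downstream of ATM, averaged 974 ± 126 normalised reads in 4T1 and 1032 ± 81.2 in 4TO7 (SD, n = 3 each) and was not called (log2 -0.089 ± 0.16, adjusted p = 0.67). Per kb of exon, Chek1 stood to Chek2 at 3.63 ± 0.64 in 4T1 and 0.882 ± 0.132 in 4TO7 (SD, n = 3 each). The ratio was higher in every 4T1 library than in every 4TO7 library, where it was 0.812, 1.03 and 0.799.

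Atr, the kinase of stalled forks, had 1763, 2960.2 and 2826 normalised reads in the 4T1 libraries and 1542, 2357 and 1786 in the 4TO7 libraries. Its libraries overlapped (log2 0.39 ± 0.24, adjusted p = 0.203), and it was called higher in 4T1 cells (0.63, adjusted p = 0.0457) when 4T1 replicate 1 was left out. Atm, the kinase of double-strand breaks, had 913, 2227 and 2107 normalised reads in the 4T1 libraries and 2683, 3315 and 2593 in the 4TO7 libraries. All 4T1 libraries were below all 4TO7 libraries, and 4T1 replicate 1 stood far below the other 4T1 libraries. The log2 fold change of -0.81 ± 0.32 did not pass (adjusted p = 0.067), and without that replicate it was -0.39 (0.0792). Atm passed in 4 of the 18 alternatives, with a lowest adjusted p of 0.0222. Among these were quantile normalisation (0.0348), equal totals (0.0328) and DESeq2 on the recovered reads (0.0424).

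Per kb of exon the ratio of Atm to Atr did not overlap between the lines, at 1.18, 1.72 and 1.71 in 4T1 and 3.98, 3.21 and 3.32 in 4TO7. Both genes are long, 10.3 and 23.6 kb of exon, and both were low in 4T1 replicate 1. An order between genes by level per kb depends on the annotated exons. Topbp1, the activator of ATR, was highest of the 38 genes per kb of exon in both lines. It had 1239 normalised reads per kb in 4T1 and 1088 in 4TO7. Its log2 fold change was 0.21 ± 0.20 (adjusted p = 0.423), and 0.42 without 4TO7 replicate 2. Chek1 followed in 4T1 cells at 1164 per kb, against 305 in 4TO7 cells, while Rad51b was lowest in both, at 17.7 in 4T1 and 22.8 in 4TO7.

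The 3 junction nuclease genes all had positive fold changes and none was called. Eme1, the partner of the MUS81 nuclease, came closest, averaging 1086 ± 149 normalised reads in 4T1 and 749 ± 177 in 4TO7 (SD, n = 3 each), a log2 fold change of 0.55 ± 0.20 with an adjusted p of 0.0506, with no overlap between the lines and adjusted p between 0.00563 and 0.18 over the alternatives. Exons of Eme1 share 221 bases, 8% of its length, with Lrrc59 on the opposite strand, which averaged 16720 normalised reads in 4T1 and 8447 in 4TO7, and the part of Lrrc59 reads in Eme1 was not tested. Mus81 itself was at 0.31 ± 0.16 (adjusted p = 0.144), also without overlap. Slx4, the scaffold that holds these nucleases, was at 0.21 ± 0.15 (adjusted p = 0.271).

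Related genes outside the 38 were read from the same fit, in lists of 124 further genes by role, to be set beside the 25.1% of all genes that were higher and the 23.9% that were lower in 4T1 cells. Of the recombination partners, 4 of 22 tested were higher in 4T1 cells and none was lower, with a median log2 fold change of 0.15. None was called without 4T1 replicate 2 or 4TO7 replicate 1. Without 4T1 replicate 1, 1 was higher and 1 lower, and without 4TO7 replicate 3, 1 was higher. Without 4T1 replicate 3, 2 were higher, and without 4TO7 replicate 2, 7 were higher and 1 lower. With equal totals per library 3 were higher and 3 lower. Fignl1, an AAA-type ATPase of the recombination pathway, was at 0.85 ± 0.24 (adjusted p = 0.0188), and Rmi2, a subunit of the BLM complex, at 0.84 ± 0.25 (adjusted p = 0.0229). Both calls were lost without 4T1 replicate 2, 4TO7 replicate 1 or 4TO7 replicate 3, that of Fignl1 also without 4T1 replicate 3, and that of Rmi2 also without 4T1 replicate 1.

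Fanconi and crosslink partners held 1 gene higher and 3 lower in 4T1 cells, of 18 tested, with a median of 0.11. Fan1, a nuclease recruited by ubiquitinated FANCD2, averaged 199 ± 59.9 normalised reads in 4T1 and 453 ± 54.2 in 4TO7 (SD, n = 3 each), at log2 -1.22 ± 0.27 (adjusted p = 0.00603). Eme2, the alternative MUS81 partner, was at -0.89 ± 0.23 (adjusted p = 0.0124). Faap20, which binds FANCA, was at -0.64 ± 0.18 (adjusted p = 0.0172), a call lost without 4T1 replicate 2, 4T1 replicate 3, 4TO7 replicate 1 or 4TO7 replicate 3. The gene that was higher was Rev1, a translesion polymerase, at 0.52 ± 0.15 (adjusted p = 0.0231), and its call was lost without the same libraries. The other 14 were not called, and 11 of the 18 fold changes were positive. Without 4TO7 replicate 2 the counts were 4 higher and 3 lower, and with equal totals 0 higher and 5 lower.

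Checkpoint partners held 5 genes higher and 2 lower in 4T1 cells, of 13 tested, with a median of 0.28. Timeless, a fork protection factor, averaged 2370.0 ± 244 normalised reads in 4T1 and 1108 ± 86.0 in 4TO7 (SD, n = 3 each), a log2 fold change of 1.09 ± 0.14 with an adjusted p of 0.000411. Etaa1, which activates ATR beside TOPBP1, was at 0.77 ± 0.18 (adjusted p = 0.00865). Cdc25a, the phosphatase that CHK1 marks for destruction, was at 0.67 ± 0.22 (adjusted p = 0.0345), a call lost without 4T1 replicate 1, 4T1 replicate 2, 4TO7 replicate 1 or 4TO7 replicate 3, with equal totals and with limma without its trend and robust options. The genes higher in 4T1 numbered 2 without 4T1 replicate 1, 4TO7 replicate 1 or 4TO7 replicate 3 and with equal totals, and 3 without 4T1 replicate 2, and leaving out any single library left 1 lower.

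Genes of S phase, set beside the repair genes because many of them rise when cells copy DNA, had 11 of 25 higher in 4T1 cells and none lower, with a median of 0.44. The count was 7 without 4TO7 replicate 1 or 4TO7 replicate 3 and 16 without 4TO7 replicate 2, where Mcm2, Mcm6, Ccne2, Gins1 and Rfc4 were gained. Mcm5, Mcm3 and Cdc6, which load and form the replicative helicase, were at 1.55 ± 0.20, 1.45 ± 0.18 and 1.13 ± 0.23 (adjusted p = 0.000346, 0.000377 and 0.00445). Genes of G2 and mitosis had 5 of 22 higher and none lower, with a median of 0.26. The count higher was 11 without 4TO7 replicate 2 and 4 without 4T1 replicate 2, 4TO7 replicate 1 or 4TO7 replicate 3. Quantile normalisation gave 2 lower, and equal totals and the replicate number as a block each gave 1 lower. Cdk1, Birc5 and Kif11 led the genes of G2 and mitosis at 0.91 ± 0.17, 0.77 ± 0.19 and 0.73 ± 0.17 (adjusted p = 0.00263, 0.00923 and 0.00933). The part of these cell-cycle levels in the repair genes was not tested. Over all 7 lists, 30 of 123 tested genes were higher and 9 lower in 4T1 cells, 31.7% in all, against 49% of all genes.

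**Figure D4:**
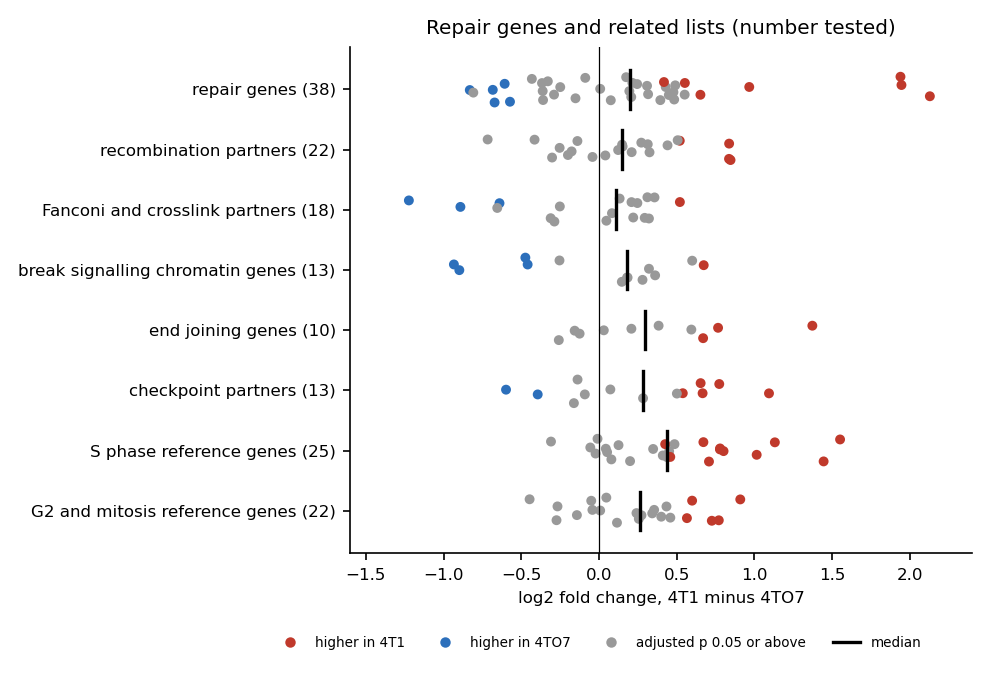
Each row is a gene list with its number of tested genes, each point 1 gene, and the x axis the log2 fold change of 4T1 minus 4TO7. Red points are higher in 4T1, blue points higher in 4TO7, grey points have an adjusted p of 0.05 or above, and the black bar is the list's median. The S phase genes have no blue point and a median of 0.44, and the repair genes have points on both sides and a median of 0.20.

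The position of the genes was read after their values were known, as the median log2 fold change of up to 20 tested neighbours, 10 on each side. Chek1 lay in a stretch of chromosome 9 where 13 of 20 neighbours were higher in 4T1 cells and 1 was lower, with a median of 1.16, against 0.04 for the 794 tested genes of that chromosome. Mre11a, elsewhere on chromosome 9, had 12 of 20 neighbours higher and none lower, with a median of 0.79, against its own value of 0.97. Bard1 and Fanca, like Chek1 at 1.95, stood above their surroundings. The Bard1 neighbours had a median of 0.18, with 6 higher and 4 lower, against 0.16 for chromosome 1. The Fanca neighbours had a median of 0.34, with 8 higher and 2 lower, against 0.49 for chromosome 8.

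Fancb, not called at -0.29, lay among neighbours with a median of -0.92, 14 of 20 of them lower in 4T1 cells and 1 higher. The median of the X chromosome was -0.25. Mus81, not called at 0.31, lay among neighbours with a median of 0.68, 16 of 20 higher and 1 lower. The median of its chromosome, 19, was 0.44. The 5 members lower in 4T1 cells had neighbours with medians between -0.12 for Rad51c and -0.30 for Fancg. The part of the neighbourhood in any member's value was not tested.

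**Figure D5:**
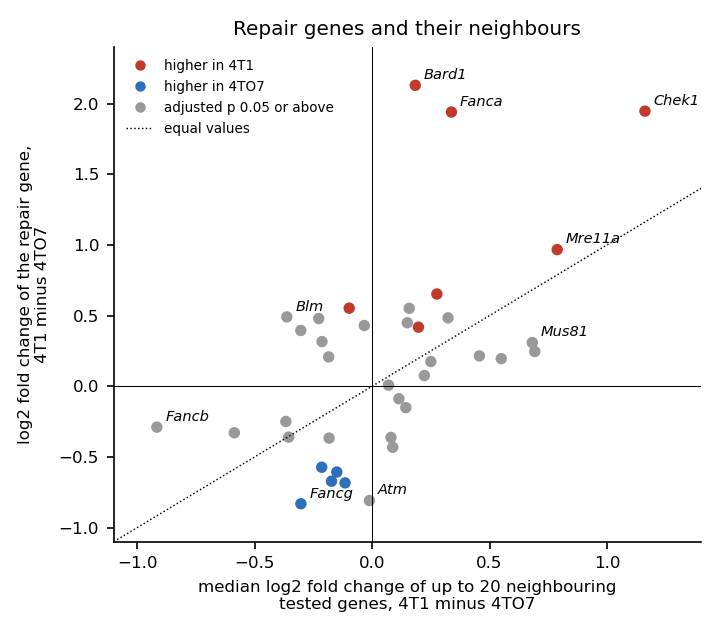
Each point is 1 repair gene, with the median log2 fold change of its neighbouring tested genes on the x axis and its own on the y axis, both 4T1 minus 4TO7. The dotted line marks equal values. Chek1 lies farthest right, at 1.16 and 1.95, Mre11a lies near the dotted line, and Bard1 and Fanca lie high above it.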

How the data were processed

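RNA from 3 4T1 and 3 4TO7 libraries was measured by sequencing. The deposited table holds, per the file headers and the values, a normalised signal per gene and library, read counts divided by a size factor, beside the authors' log2 fold change, its standard error, a test score, a p-value and its adjusted value. Per the submitters' processing notes, STAR 2.5, featureCounts 1.5, DESeq2 and the build GRCm38 were used. The annotation release and the strand setting were not given in the sources used here. How reads in exon bases shared between genes were counted is not known here.

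The 38 members, the 7 lists of related genes and the 4 marker lists were chosen with earlier results of these data known. Of 155 listed genes 154 were found, older symbols included, and Hrob was not matched. 763 rows have no gene name. Within each library all nonzero values were whole multiples of a single step (100% within 1e-06), so read counts were recovered for the count tests. Genes with at least 10 normalised reads in at least 3 of 6 libraries were tested on log2(value + 1) with limma 3.58.1 in R 4.3.3 (group alone, intensity trend, robust hyperparameters), two-sided, adjusted by Benjamini-Hochberg at 0.05. The script was tested on simulated data. Per-library values are given for the called members and for 10 fixed genes (Brca1, Brca2, Palb2, Fancd2, Fanca, Atm, Atr, Chek1, Rad50 and Blm), and up to 3 called genes of each list, those of largest fold change, are named. Some of the genes this rule takes are not reported here. Other genes named, the ratios and the neighbourhoods were chosen after values were seen. The 18 alternatives changed the pseudocount, the filter, the scaling, the variance model, the tool (edgeR 4.0.16, DESeq2 1.42.0), the block and the libraries used. Gene positions and exon lengths are from GENCODE M21 on GRCm38, and promoter windows from RefSeq. An exon length is the union of all annotated exons of a gene.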

Additional observations from a re-analysis of the deposited data

How the results depend on the processing

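Settings other than leaving out libraries moved few counts. With equal totals per library 8 repair genes were higher in 4TO7 cells in place of 5, and the members' median log2 fold change was 0.073 in place of 0.20 (0.087 with quantile normalisation). Of all genes, 4060 were higher in 4TO7 cells with equal totals, in place of 3412. Equal totals moved the median of all genes to -0.10, against 0.03, and the members' median stayed 0.17 above it under both. Leaving out single libraries gave 5 to 18 called members in place of 12, 4 to 13 higher in 4T1 in place of 7, 0 to 5 higher in 4TO7 in place of 5, 21 to 61 called related genes in place of 39, and a members' median of 0.078 to 0.29. Over all genes tested, those fits called 2751 to 4162 higher in 4T1 in place of 3585. They called 2491 to 3902 higher in 4TO7 in place of 3412. Without both 4T1 replicate 1 and 4TO7 replicate 2, a choice made after seeing the data, 19 members were called, 15 of them higher in 4T1, the median was 0.32, and 63 related genes were called. The 8 called members other than Bard1, Chek1, Fanca and Mre11a each lost the call without at least 1 library, while no member had under 59 reads in any library.

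Signs reversed in 4 uncalled genes, and the cause was not tested. Brca1 (0.076) was at -0.0080 with quantile normalisation, -0.053 with equal totals and between -0.050 and 0.34 with libraries left out. Rad54b (0.0075) was at -0.029 with TMM scaling, -0.026 with quantile normalisation, -0.12 with equal totals, -0.038 with edgeR, -0.016 with DESeq2 and between -0.060 and 0.13 with libraries left out. Fancb (-0.29) was between -0.49 and 0.062, positive without 4TO7 replicate 2, and Chek2 (-0.089) between -0.15 and 0.023, positive without 4T1 replicate 2. Over 684 values of members under alternatives, 598 kept direction and side of the threshold, 41 lost the call and 30 gained it.

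With the replicate number as a block, 10 members were higher in 4T1 and 6 in 4TO7, against 7 and 5. Of all genes, 3990 and 3760 were, against 3585 and 3412. Deviations of same-numbered libraries correlated at -0.01, 0.27 and 0.33 for numbers 1 to 3. 4T1 replicates 2 and 3 each correlated best with the 4TO7 library of the same number, and 4T1 replicate 1 with 4TO7 replicate 2 (0.11). 4TO7 replicate 1 correlated best with 4T1 replicate 3 (0.27). The labels name no pairing, and whether the numbers pair the samples was not tested.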

Other observations

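End joining, the repair route that competes with recombination for broken ends, had 3 of 10 genes higher in 4T1 cells, where 25.1% of all genes were, and none lower, with a median log2 fold change of 0.30. Lig4, the ligase of the route, averaged 858 ± 121 normalised reads in 4T1 and 343 ± 130.4 in 4TO7 (SD, n = 3 each), a log2 fold change of 1.37 ± 0.26 with a limma adjusted p of 0.00328, with 4TO7 replicate 2 highest among the 4TO7 libraries. Xrcc5, which encodes the KU80 end-binding subunit, averaged 3996 ± 88.9 normalised reads in 4T1 and 2349 ± 50.5 in 4TO7 (SD, n = 3 each), a log2 fold change of 0.77 ± 0.12 with an adjusted p of 0.000974. Dclre1c, the ARTEMIS nuclease, was at 0.67 ± 0.19 (adjusted p = 0.0178), a call lost without 4T1 replicate 2, 4TO7 replicate 1 or 4TO7 replicate 3. Of the genes that mark chromatin around a break, 4 of 13 were lower in 4T1 cells and 1 was higher, against 23.9% and 25.1% of all genes, although the list's median was 0.18. The lower genes numbered 2 without 4T1 replicate 2, 4T1 replicate 3, 4TO7 replicate 1 or 4TO7 replicate 3, and the higher genes numbered 2 without 4T1 replicate 1 and 3 without 4TO7 replicate 2. Trp53bp1, which shields ends from resection, averaged 2096 ± 326 normalised reads in 4T1 and 3929 ± 759 in 4TO7 (SD, n = 3 each), a log2 fold change of -0.90 ± 0.19 with an adjusted p of 0.00533. Fam175a, which encodes the scaffold ABRAXAS of a BRCA1 complex, averaged 818 ± 105 normalised reads in 4T1 and 1556 ± 44.3 in 4TO7 (SD, n = 3 each), a log2 fold change of -0.93 ± 0.15 with an adjusted p of 0.00131. Uimc1 and Bre, 2 further subunits of that complex, were also lower in 4T1 cells, at -0.47 ± 0.15 and -0.46 ± 0.16 (adjusted p = 0.0292 and 0.047), and both calls were lost without 4T1 replicate 2, 4T1 replicate 3, 4TO7 replicate 1 or 4TO7 replicate 3, that of Bre also without 4T1 replicate 1. The complex's other listed subunits were not called and had positive fold changes, Babam1 at 0.32 ± 0.13 (adjusted p = 0.0662), with every 4T1 library above every 4TO7 library, and Brcc3 at 0.18 ± 0.15 (adjusted p = 0.332). The acetyltransferase gene Kat5 was higher, at 0.67 ± 0.15 (adjusted p = 0.00754).

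The authors' deposited table, whose fold changes run 4TO7 over 4T1, gave 13 of the 38 repair genes an adjusted p under 0.05, 8 higher in 4T1 and 5 higher in 4TO7. The share of all genes called in that table is not given here. DESeq2 on the recovered reads called 8 members higher in 4T1 and 6 in 4TO7. Of all 14276 genes tested it called 3641 and 3665. The authors' table and limma used the same 6 libraries, so calls in both are not separate evidence. All 12 members called by limma were among the 13 of the authors' table, with the same direction. The remaining member was Eme1, at a log2 fold change of -0.54 and an adjusted p of 0.0481 in the authors' deposited table.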
